A study of Homo sapiens with 6 samples.

Results

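The genes of polyamine synthesis and breakdown were examined in K562 cells, an erythroid leukemia line, after iron chelation. The 10 genes, of 62252 in the annotation, were chosen by name for their role: ODC1, its regulators OAZ1, OAZ2 and AZIN1, the enzymes AMD1, SRM and SMS, and the breakdown enzymes SAT1, PAOX and SMOX. Reads of all GENCODE release 44 transcripts of a gene were summed. Cells received 10 µM 21H7, an iron chelator that enters cells, overnight (Chelator, 3 libraries), or the same volume of its solvent DMSO (DMSO, 3 libraries). Both groups were the same unmodified line, with 1 dose and 1 exposure, and polyadenylated RNA was sequenced in paired ends. The labels call the 3 samples of a group biological replicates.

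Putrescine, spermidine and spermine are small polycations that bind RNA and DNA and are needed for growth, and spermidine also supplies the side chain that makes hypusine in the translation factor eIF5A. Ornithine decarboxylase (ODC1) makes putrescine, S-adenosylmethionine decarboxylase (AMD1) makes the aminopropyl donor, and spermidine synthase (SRM) and spermine synthase (SMS) add that group in turn. Antizymes (OAZ1, OAZ2) bind ornithine decarboxylase and send it to the proteasome, and antizyme inhibitor (AZIN1) binds antizyme instead. Spermidine/spermine acetyltransferase (SAT1) and the oxidases PAOX and SMOX take the chain apart, and several of these genes are also controlled after transcription.

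Short stretches of the transcripts that carry this control show what the read counts rest on. Antizyme is made only when ribosomes shift frame at a stop codon, and polyamines favour the shift. GENCODE writes coding antizyme transcripts such as OAZ1-211 and OAZ2-201 with the skipped base removed, at position 2271443 of chromosome 19 for OAZ1 and 64691515 of chromosome 15 for OAZ2 (GRCh38), while other transcripts of both genes, the coding OAZ1-204 among them, keep it. For each gene the most abundant transcript of either kind is shown, with the shift site in capitals (chr19:2271428-2271457, plus strand, and chr15:64691501-64691530, minus strand).
OAZ1-209, base kept: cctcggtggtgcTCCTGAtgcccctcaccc
OAZ1-211, base left out: cctcggtggtgcTCCGAtgcccctcaccc
OAZ2-209, base kept: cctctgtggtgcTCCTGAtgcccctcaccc
OAZ2-201, base left out: cctctgtggtgcTCCGAtgcccctcaccc

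AMD1 mRNA carries a short upstream reading frame through which polyamines reduce its translation. In AMD1-204 it has 6 codons before its stop and lies 289 bases ahead of the main start codon (chr6:110874796-110874816, plus strand). Start and stop are in capitals.
AMD1-204, upstream frame: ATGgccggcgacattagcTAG
The SAT1 gene holds an alternative exon with an early stop codon, whose inclusion makes a transcript subject to nonsense-mediated decay. The exon has 110 bases on chromosome X, from 23784294 to 23784403, is held by SAT1-208 and not by the main coding transcript SAT1-204, and its stop begins at base 12 of the exon. The stretch runs across the junction from the preceding exon, with the stop in capitals.
SAT1-208, early stop: ggttacagtctcTAGcttcgccatgta

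RefSeq promoter windows on GRCh38.p14, from 250 bases before to 50 after a start, were on hand for 7 of the 10 genes (10 windows). The letters CACGTG, an E-box that MYC and its partners bind and that reads the same on both strands, stood in 2 of these windows, 1 of the 2 of ODC1 and the only one of SRM, against 7.26% of 35116 windows in all. The ODC1 window lies inside the gene, downstream of its first annotated start, and the window at that start held none. Both windows with it are printed with CACGTG in capitals (ODC1 chr2:10447963-10448262 and SRM chr1:11059969-11060268, both minus strand), and that of SAT1 (chrX:23782923-23783222, plus strand) is set beside them as that of a gene that rose. The 3 windows of AMD1 and those of SMS, OAZ1, OAZ2 and SAT1 held no CACGTG.
ODC1 inner window: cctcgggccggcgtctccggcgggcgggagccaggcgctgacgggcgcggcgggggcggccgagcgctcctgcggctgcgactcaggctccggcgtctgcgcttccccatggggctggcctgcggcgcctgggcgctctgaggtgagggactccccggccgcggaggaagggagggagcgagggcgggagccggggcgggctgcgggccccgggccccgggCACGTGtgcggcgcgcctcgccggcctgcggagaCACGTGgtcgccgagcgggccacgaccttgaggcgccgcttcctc
SRM promoter: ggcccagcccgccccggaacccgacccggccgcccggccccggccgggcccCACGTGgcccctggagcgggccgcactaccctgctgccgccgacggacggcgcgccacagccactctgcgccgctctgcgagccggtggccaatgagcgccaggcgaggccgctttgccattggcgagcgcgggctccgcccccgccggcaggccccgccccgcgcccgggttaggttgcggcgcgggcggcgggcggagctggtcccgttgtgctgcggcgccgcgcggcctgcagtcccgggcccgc
SAT1 promoter: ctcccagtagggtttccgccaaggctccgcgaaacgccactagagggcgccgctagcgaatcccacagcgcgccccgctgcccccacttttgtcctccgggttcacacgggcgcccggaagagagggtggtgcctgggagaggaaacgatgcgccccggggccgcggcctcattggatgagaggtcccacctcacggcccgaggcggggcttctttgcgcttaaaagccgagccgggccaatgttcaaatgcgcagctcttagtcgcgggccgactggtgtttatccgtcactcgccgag
The letters ACGTG on either strand, the core of the hypoxia response element together with GCGTG, were found in 21.4% of all windows and GCGTG in 36.5%. ACGTG is part of CACGTG. It stood in the ODC1 and SRM windows printed above only within CACGTG, and otherwise once, in the SMS window. GCGTG stood 3 times in the other ODC1 window, 2 times in that of OAZ1, and once in that of SMS and in each of 2 AMD1 windows that overlap almost wholly. The SAT1 and OAZ2 windows held none of these letters. A match describes the letters of a window, and binding was not measured.

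The DMSO libraries held 78.5 to 90.3 M counts (M, 1e+06) matched to the annotation and the Chelator libraries 85.3 to 101 M. The 10 genes took 0.194% to 0.202% of them in DMSO and 0.161% to 0.179% in Chelator. A typical fragment length was inferred as the most common gap between length and salmon's effective length, over transcripts of middle length without counts. It was 252 to 264 bases in DMSO and 200 to 218 in Chelator. This difference ran along with the treatment, so the 2 cannot be told apart. TFRC, the transferrin receptor gene whose mRNA is stabilized at low iron, was higher in Chelator by 2.89 ± 0.10 (log2 fold change ± SE). Erythroid genes that mark K562 were expressed, with means of 5274 TPM (a level per transcript length) in DMSO and 6986 in Chelator for the fetal globin gene HBG2 and 170.5 and 159 for the transcription factor GATA1. The globins HBG1, HBG2, HBE1 and HBZ rose, KLF1 (−0.72) and TAL1 (−0.28) fell, and GATA1 did not pass. The 4 lymphocyte markers summed to 11.6 to 17.8 TPM in DMSO and 42.4 to 44.1 in Chelator, with MS4A1 listed at 0 in all libraries. Most of that sum was CD3D (means of 12.8 and 39.8 TPM). The 3 monocyte markers summed to 11.4 to 12.1 and 17.3 to 19.7 TPM, and the 4 epithelial and fibroblast markers to 65.5 to 72.2 and 49.2 to 54.1 TPM. Most of this last sum was EPCAM (means of 65.4 and 47.9 TPM), while COL1A1 rose, from 0.589 to 1.83 TPM, and COL1A2 fell, from 2.48 to 1.80 TPM. The part of these other lists in the results was not tested. In bulk RNA, fewer cells of a type and less RNA per cell cannot be told apart.

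In DMSO, levels per transcript length spanned from 902 ± 29.0 TPM (SD, n = 3) for OAZ1 to 2.53 ± 0.224 TPM for SMOX, in the order OAZ1, ODC1, SRM, SMS, AMD1, AZIN1, OAZ2, SAT1, PAOX, SMOX. No pair of neighbours in that order had overlapping ranges. In Chelator the order of the first 4 was the same. SAT1 (51.8 ± 4.26 TPM), AMD1 (46.9 ± 2.58 TPM) and AZIN1 (46.3 ± 1.39 TPM) then followed with overlapping ranges, and SMOX stood above PAOX.

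**Figure D1:**
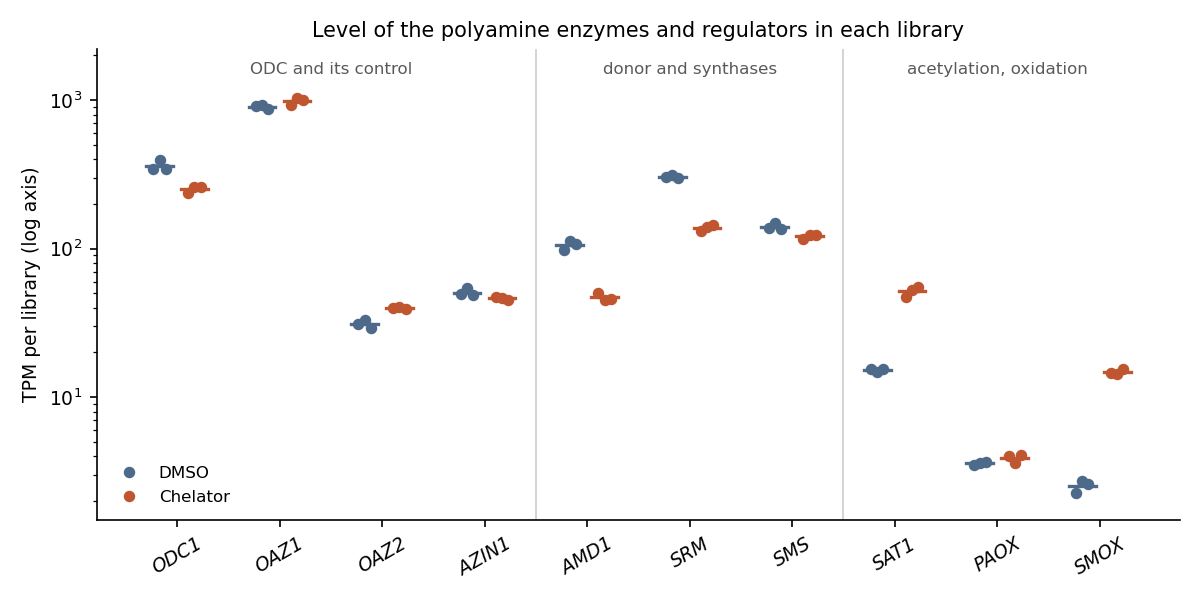
TPM of each of the 10 genes (log axis) in the 3 DMSO and 3 Chelator libraries, with points for libraries and short lines for group means. AMD1 and SRM sit lower and SAT1 and SMOX higher in every Chelator library than in any DMSO library, while PAOX overlaps.

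All 4 enzymes of synthesis fell and 2 of the 3 enzymes of breakdown rose. At an adjusted p under 0.05 in DESeq2's Wald test over all genes, ODC1, AMD1, SRM and SMS fell, OAZ2, SAT1 and SMOX rose, and OAZ1, AZIN1 and PAOX did not pass. That is 4 of 10 lower and 3 of 10 higher, where 18.3% of the 24542 genes with an adjusted p were lower and 19.5% higher. With an absolute log2 fold change above 1 also required, 2 were lower (AMD1, SRM) and 2 higher (SAT1, SMOX), where 2.6% of all genes were called lower and 8.18% higher. Their median log2 fold change was −0.03, beside 0.02 over all genes. Such counts over 10 genes chosen by name describe these genes. With 3 samples a group, each p-value sets a change against a spread between samples that DESeq2 estimates partly from other genes.

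ODC1 (chromosome 2, 10439968 to 10448327, minus strand), the first enzyme of the pathway, stood at 346, 394 and 346 TPM in the DMSO libraries and at 237, 259.6 and 259.8 TPM in the Chelator libraries. The groups did not overlap. Its log2 fold change was −0.55 ± 0.06 (SE, DESeq2 adjusted p = 5.34e-18), a level 1.46 times lower (95% interval 1.35 to 1.59). Under all 20 other settings it kept its direction and stayed under the threshold.

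The main antizyme, OAZ1 (chromosome 19, 2269509 to 2273490, plus strand), was the most abundant of the 10 genes. It stood at 916, 921 and 868 TPM in DMSO and 929.7, 1026 and 998 TPM in Chelator. These TPM ranges did not overlap, but normalized counts with the length offset did, and the log2 fold change was 0.09 ± 0.08 (DESeq2 adjusted p = 0.369). This value depended on which transcripts were summed. Over transcripts annotated as protein coding alone it was 1.30 (adjusted p = 1.33e-20), and with retained-intron transcripts left out 1.15 (adjusted p = 5.23e-17). Without the length offset it was 0.34 (adjusted p = 0.000158) and under limma-voom 0.37 (adjusted p = 0.00148). The mean effective length of OAZ1 was 641 bases in DMSO and 766 in Chelator. The direction also turned, to −0.08, with centring of the libraries by their mean log2 change, and to −0.07 with GC and length trends removed.

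OAZ2 (chromosome 15, 64687573 to 64703281, minus strand), another antizyme, stood at 31.2, 33.1 and 29.4 TPM in DMSO and at 39.6, 40.5 and 39.1 TPM in Chelator. Every Chelator value lay above every DMSO value. OAZ2 rose by a log2 fold change of 0.32 ± 0.08 (DESeq2 adjusted p = 0.000269), and the call ended with that centring (0.15, adjusted p = 0.171). AZIN1, which releases ornithine decarboxylase from antizyme, stood at 49.3, 53.9 and 48.6 TPM in DMSO and 47.5, 46.7 and 44.8 TPM in Chelator. Its groups did not overlap either, with all Chelator values lower by a small margin. The log2 fold change was −0.16 ± 0.07 (95% interval −0.30 to −0.02, DESeq2 adjusted p = 0.0712), and it passed without Chelator replicate 1 (−0.19, adjusted p = 0.0115) or without DMSO replicate 2 (−0.19, adjusted p = 0.0195). It also passed with that centring (−0.32, adjusted p = 0.000217), without the length offset (adjusted p = 0.00474), under limma-voom (adjusted p = 0.0206) and over protein-coding transcripts (adjusted p = 0.0320), and was −0.04 with GC and length trends removed.

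Within each library, the TPM ratio of ODC1 to both antizymes summed was 0.365, 0.413 and 0.385 in DMSO and 0.245, 0.243 and 0.251 in Chelator. The ratio of AZIN1 to the antizymes was 0.0521, 0.0566 and 0.0541 in DMSO and 0.0490, 0.0437 and 0.0432 in Chelator. Neither ratio overlapped between the groups, and both were lower in Chelator. They are ratios of mRNA over all annotated transcripts, and protein was not measured.

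AMD1 (chromosome 6, 110874770 to 110898879, plus strand), whose enzyme makes decarboxylated S-adenosylmethionine, stood at 97.6, 112 and 107 TPM in DMSO and 49.9, 45.1 and 45.8 TPM in Chelator. The highest Chelator library lay well under the lowest DMSO library. AMD1 fell by 1.20 ± 0.08 on the log2 scale (DESeq2 adjusted p = 2.39e-46), a level 2.29 times lower (95% interval 2.05 to 2.56). SRM (chromosome 1, 11054584 to 11060020, minus strand), which makes spermidine, stood at 302, 314 and 301 TPM in DMSO and 131, 139.7 and 145 TPM in Chelator. Again the groups lay far apart relative to their spread. SRM fell by 1.18 ± 0.08 (DESeq2 adjusted p = 4.82e-52), a level 2.26 times lower (95% interval 2.04 to 2.51). Neither fall was shown to exceed a log2 fold change of 1 when that size itself was tested, and 5.65% of genes had a lower log2 fold change than AMD1 and 5.86% than SRM.

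SMS (chromosome X, 21940709 to 21994837, plus strand), which turns spermidine into spermine, stood at 137, 149 and 137 TPM in DMSO and at 117, 123 and 123 TPM in Chelator. Its fall was without overlap but small, at −0.25 ± 0.07 (DESeq2 adjusted p = 0.000621). The TPM ratio of SRM to SMS was accordingly 2.21, 2.10 and 2.20 in DMSO and 1.12, 1.14 and 1.17 in Chelator. Summed over ODC1, AMD1, SRM and SMS, the TPM went from a mean of 914 in DMSO to 558 in Chelator.

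SAT1 (chromosome X, 23783173 to 23786210, plus strand), the acetyltransferase that starts breakdown, stood at 15.5, 14.7 and 15.4 TPM in DMSO and at 47.1, 52.9 and 55.5 TPM in Chelator. All Chelator values exceeded all DMSO values. SAT1 rose by 1.73 ± 0.11 (DESeq2 adjusted p = 3.34e-53), or 3.32-fold (95% interval 2.86 to 3.86). SMOX (chromosome 20, 4120980 to 4187747, plus strand), which oxidizes spermine directly to spermidine and releases hydrogen peroxide, stood at 2.28, 2.71 and 2.60 TPM in DMSO and at 14.6, 14.4 and 15.4 TPM in Chelator. This was the largest change among the 10 genes, 2.52 ± 0.11 (DESeq2 adjusted p = 3.43e-124), or 5.74-fold (95% interval 4.97 to 6.62). Of all genes with an adjusted p, 4.0% had a larger log2 fold change than SMOX and 7.49% than SAT1. Both kept their direction and stayed under the threshold in all 20 other settings.

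PAOX (chromosome 10, 133379261 to 133391694, plus strand), the peroxisomal oxidase that acts on acetylated polyamines, stood at 3.49, 3.58 and 3.69 TPM in DMSO and at 4.01, 3.63 and 4.07 TPM in Chelator. The groups overlapped. Its log2 fold change was 0.09 ± 0.15, with a 95% interval from −0.21 to 0.38 (DESeq2 adjusted p = 0.711), and the direction turned to −0.08 with centring on the mean log2 change and to −0.06 with GC and length trends removed. Its reads are uncertain, since 53.8% of its 31-base sequences also occur in an overlapping locus. With the reads of that locus added, the change was 0.12 (adjusted p = 0.537). The TPM ratio of SMOX to PAOX was 0.653 to 0.758 in DMSO and 3.65 to 3.97 in Chelator, and the summed TPM of SAT1, PAOX and SMOX went from a mean of 21.3 to 70.5.

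**Figure D2:**
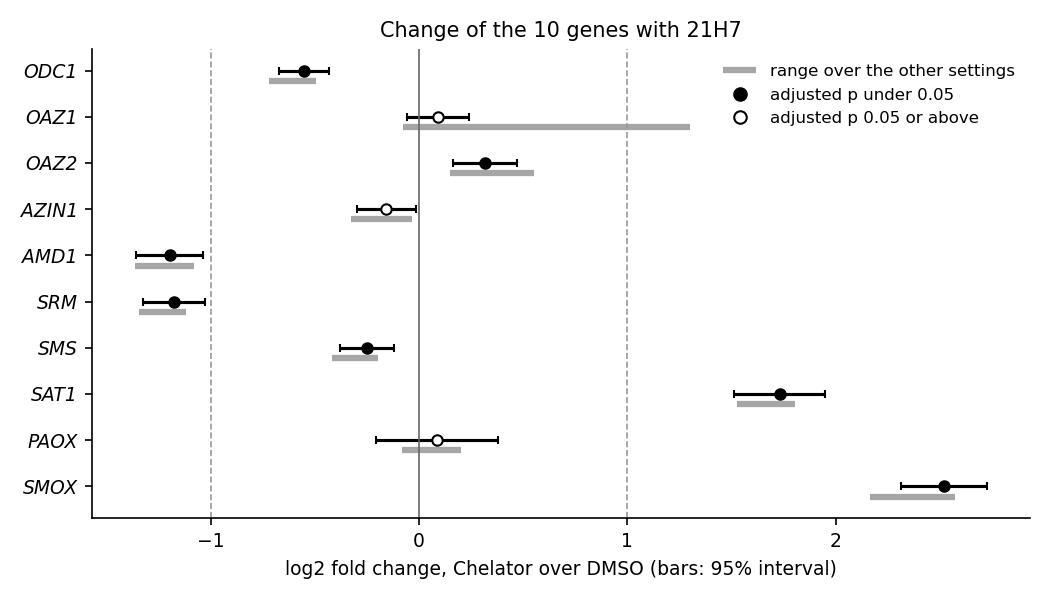
log2 fold change of each gene, Chelator over DMSO, with 95% interval (black; filled where the DESeq2 adjusted p is under 0.05) and the range over the other settings (grey). Dashed lines mark −1 and 1. AMD1, SRM, SAT1 and SMOX lie beyond them, and the range of OAZ1 runs from −0.08 to 1.30.

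The split of reads among transcripts changed in OAZ1. All 10 genes were tested for transcript usage with edgeR, and 1 was called, OAZ1 (adjusted p = 5.01e-06), where 9.22% of 11938 genes were called. OAZ1-211, a coding transcript written without the shift base, held 11.1%, 10.4% and 12.97% of OAZ1 TPM in DMSO and 21.99%, 28.3% and 31.2% in Chelator, a change of 15.6 percentage points. OAZ1-208, annotated as retaining an intron, held 38.2%, 39.3% and 33.0% in DMSO and 26.5%, 21.1% and 18.6% in Chelator. Neither transcript overlapped between the groups. The transcript-level adjusted p was 2.68e-06 for OAZ1-211 and 0.000328 for OAZ1-208, and OAZ1 was called in all 11 alternative settings. OAZ1-209, annotated as retaining an intron too, held the most, 45.5% to 49.0% in DMSO and 42.2% to 45.2% in Chelator. Other retained-intron transcripts of OAZ1 took larger shares in Chelator, OAZ1-201 (from a mean of 0.982% to 2.67%, transcript adjusted p = 0.00167) and OAZ1-203 (0.197% to 0.541%, adjusted p = 0.0367).

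GENCODE writes some coding transcripts without the shift base, so shares grouped by it show how salmon assigned reads to annotated transcripts. Grouped so, OAZ1 transcripts written without it went from 12.2% ± 1.37 (SD, n = 3) of TPM in DMSO to 27.7% ± 4.69 in Chelator. The corresponding OAZ2 transcripts went from 51.9% ± 0.748 to 57.9% ± 1.95, also without overlap, but OAZ2 usage was not called (edgeR adjusted p = 0.426). The share of OAZ2-201 changed by 5.94 points and that of OAZ2-209 by −5.96 points. OAZ1 transcripts share most of their sequence, and 2 of the 1118 31-base sequences of OAZ1-211 occur in no other OAZ1 transcript, and none of the 823 of OAZ1-209 or the 696 of OAZ1-208 do. Of the 31-base sequences of OAZ1 as a whole, 10.0% also occur in other genes. The parts of the shift base, the shared sequence and the shorter Chelator fragments in this split were not tested.

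**Figure D3:**
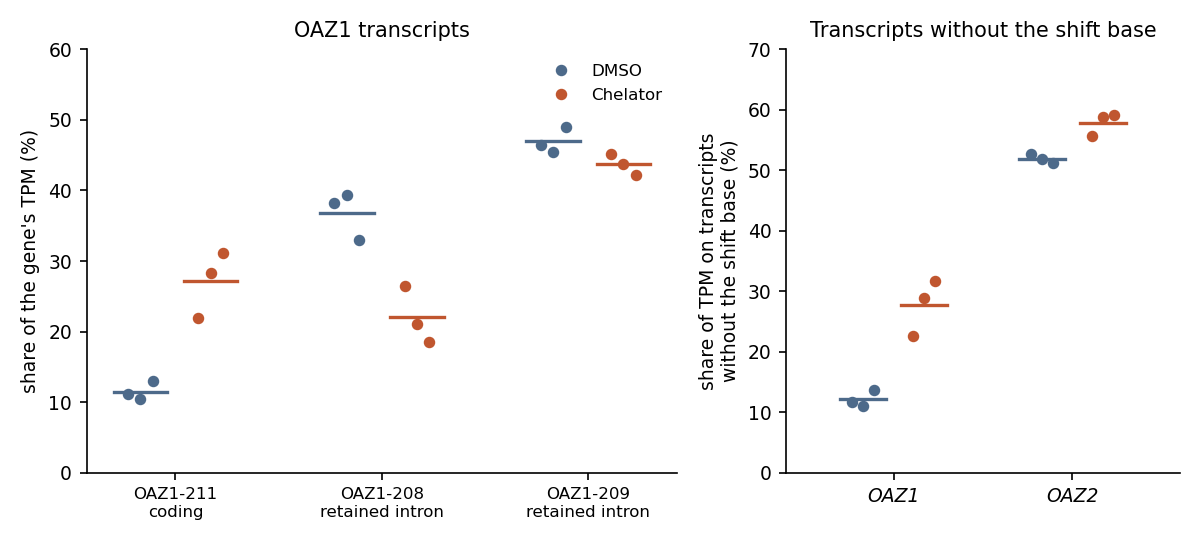
Left, share of OAZ1 TPM (%) on 3 transcripts in each library. Right, share on transcripts that GENCODE writes without the shift base, for OAZ1 and OAZ2. Lines are group means of 3 libraries. OAZ1-211 rises from 10.4% to 12.97% in DMSO to 21.99% to 31.2% in Chelator while OAZ1-208 falls.

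Other genes held transcripts whose mean share moved by over 5 points without a usage call. For ODC1 (edgeR adjusted p = 0.0617), the main transcript ODC1-201 held 78.4% to 84.5% in DMSO and 70.1% to 74.4% in Chelator, and ODC1-206 held 14.8% to 21.0% and 24.6% to 29.2%. AMD1-203 held 35.3% to 47.5% and 20.5% to 52.7%, a range that overlapped, and it has no 31-base sequence of its own. AMD1 usage was not called (adjusted p = 0.181) but was called without Chelator replicate 1 (adjusted p = 0.00228). SRM-201 held 94.1% to 94.4% in DMSO and 85.0% to 91.2% in Chelator (gene adjusted p = 0.374). SMOX-202 held 59.8% to 62.5% in DMSO and 76.7% to 83.0% in Chelator, and SMOX-212 held 12.9% to 37.5% and 4.67% to 7.31% (gene adjusted p = 0.682), though neither transcript has a 31-base sequence of its own. Usage of ODC1, AMD1, SRM and SMOX was called under both a likelihood ratio fit and limma's diffSplice. SMS and AZIN1 had no transcript that moved by over 5 points.

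The SAT1 and PAOX transcripts included noncoding forms. SAT1-204, the main coding form, held 62.7% to 74.7% of SAT1 TPM in DMSO and 49.4% to 56.7% in Chelator, and SAT1-206, with a retained intron, 7.13% to 11.9% and 14.3% to 16.3%, with no call for the gene (edgeR adjusted p = 1.00). SAT1 usage was called under limma's diffSplice (adjusted p = 0.0139). SAT1-208, which holds the exon with the early stop printed above, held 3.03%, 1.08% and 2.21% in DMSO and 4.69%, 3.49% and 3.31% in Chelator. The summed level of coding SAT1 transcripts was 9.91 to 11.1 TPM in DMSO and 26.6 to 30.98 TPM in Chelator. In PAOX, the transcript PAOX-207 was assigned 0 counts in every DMSO library and 37, 39 and 24 in Chelator, though it has no 31-base sequence of its own, while PAOX-208, too low to be tested, held 7.51% to 15.8% in DMSO and 0% to 3.26% in Chelator and PAOX-201 held 48.3% to 67.9% and 58.4% to 75.9%. The gene adjusted p was 0.109, and PAOX had at most 542 counts in a library.

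Transcripts annotated for nonsense-mediated decay took a larger share in Chelator, without overlap, in 4 of the 7 genes that have any: AMD1 (from a mean of 1.80% to 6.02%), SRM (1.89% to 4.75%), AZIN1 (1.38% to 2.67%) and SAT1 (2.11% to 3.83%). Of the 5644 genes tested for usage that have such a transcript, 20.9% moved this way without overlap and 6.02% the other way. In level, decay transcripts overlapped between DMSO and Chelator for SRM (5.11 to 6.75 and 4.97 to 8.96 TPM) and AMD1 (0.839 to 3.45 and 1.956 to 3.67 TPM), whose coding transcripts were lower in Chelator. That level was higher in Chelator without overlap for AZIN1 (0.529 to 0.795 and 1.20 to 1.29 TPM) and SAT1 (0.160 to 0.469 and 1.84 to 2.21 TPM). In share, the groups overlapped in ODC1 (0.346% and 0.408%), OAZ1 (1.39% and 0.926%) and PAOX (14.1% and 17.3%). Retained-intron transcripts took a larger share in Chelator, without overlap, in AMD1 (0.631% to 2.81%), SRM (1.99% to 4.62%) and SAT1 (29.1% to 39.2%), and a smaller one in OAZ1 (85.3% to 69.6%) and OAZ2 (2.59% to 2.03%), and overlapped in AZIN1 (0.607% and 1.39%). Of 7282 genes with a retained-intron transcript, 21.9% were higher and 8.61% lower without overlap. The level of SRM retained-intron transcripts overlapped too (4.20 to 7.16 and 3.72 to 8.68 TPM), as did those of AZIN1 and OAZ2. It rose without overlap in AMD1 (0.457 to 0.934 and 1.18 to 1.48 TPM) and SAT1 (3.51 to 5.11 and 18.3 to 22.7 TPM). In OAZ1 it fell without overlap (726 to 795 and 648 to 704 TPM). Most of this OAZ1 class was assigned to OAZ1-208 and OAZ1-209 (mean shares of 36.9% and 47.0% in DMSO, 22.1% and 43.7% in Chelator). Neither has a 31-base sequence of its own. OAZ1-201 and OAZ1-203, of the same class, took larger shares in Chelator without overlap. Whether intron retention itself changed in OAZ1 was not tested. These summed shares and levels were not tested, and the part of the fragment length, which was lower in all Chelator libraries, was not tested.

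**Figure D4:**
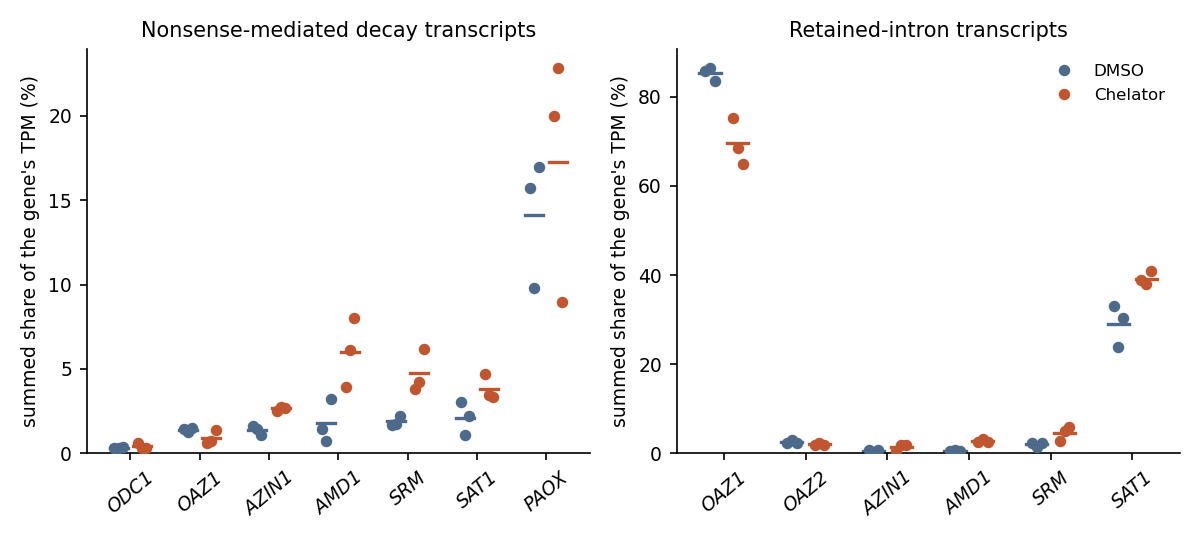
Share of each gene's TPM (%) on transcripts annotated for nonsense-mediated decay (left) and with a retained intron (right), per library, with group means as lines. The share of decay transcripts of AMD1 and SRM is higher in every Chelator library, and the share of retained-intron transcripts of OAZ1 is lower. Most of that OAZ1 share lies on OAZ1-208 and OAZ1-209, which have no 31-base sequence of their own.

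Of 37 further pathway genes, 34 could be tested, and 6 rose and 11 fell at an adjusted p under 0.05, with 3 called higher and 2 called lower. Over all genes 19.5% were higher and 18.3% lower, and 8.18% were called higher and 2.6% called lower, and the parts of this list hold few genes each. Their median log2 fold change was −0.03. Among genes above 1 TPM in DMSO, the largest rises were in the supply of arginine and its product ornithine. ASS1, argininosuccinate synthase, rose by 2.92 ± 0.17 (DESeq2 adjusted p = 4.15e-64), from 1.13 to 8.78 TPM on average. ARG2, the mitochondrial arginase that yields ornithine, rose by 1.95 ± 0.10 (adjusted p = 4.25e-91), from 9.72 to 38.4 TPM. Of the 8 genes of that list, 2 rose and 1 fell, ALDH18A1, which makes ornithine precursor from glutamate (−0.55), named after its value was seen.

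Among 9 genes of S-adenosylmethionine supply and methionine salvage, which recovers the methylthioadenosine that SRM and SMS release, 5 fell and 2 rose, where 18.3% and 19.5% of all genes did. MRI1, a salvage isomerase, fell by 1.18 ± 0.09 (DESeq2 adjusted p = 7.19e-38), and MTAP, which splits methylthioadenosine, fell by 1.19 ± 0.23 (adjusted p = 1.12e-06) at a level of only 0.570 TPM in DMSO and 0.251 in Chelator. ADI1, an iron-holding dioxygenase of the salvage pathway, rose by 0.22 ± 0.08 (adjusted p = 0.0152), a call that ended without Chelator replicate 3 (adjusted p = 0.0672) and with centring on the mean log2 change (0.05, adjusted p = 0.705). The others that passed, named after their values were seen, were ENOPH1 (−0.73), APIP (−0.36), MAT2A (−0.29) and GOT1 (0.81). The MAT2A groups overlapped in normalized counts, though not in TPM, and its call ended in 11 of 20 other settings, among them those without Chelator replicate 1 or 2 and without DMSO replicate 1 or 3 (adjusted p from 0.0794 to 0.221).

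EIF5A, the factor that hypusine is made on, fell by 0.56 ± 0.07 (DESeq2 adjusted p = 4.38e-15), from a mean of 1499.8 to 1041 TPM. DOHH, the iron-holding hydroxylase that completes hypusine, fell by 0.25 ± 0.08 (adjusted p = 0.00573), though not under limma-voom (adjusted p = 0.0513) or limma on log2 TPM (adjusted p = 0.0808 and 0.0819). DHPS, which transfers the aminobutyl group of spermidine, stood at 50.6 ± 6.02 TPM in DMSO and 55.8 ± 3.76 TPM in Chelator (log2 fold change 0.12 ± 0.08, adjusted p = 0.299), and its direction turned under 4 settings. In all, 2 of the 4 genes of this list fell and none rose, beside 18.3% and 19.5% of all genes.

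Of the 10 listed transport genes, 8 could be tested, and 2 rose and 3 fell, beside the shares of 19.5% and 18.3% over all genes. SLC3A2, the shared heavy chain of several amino acid exchangers, rose by 0.74 ± 0.07 (DESeq2 adjusted p = 1.47e-21), from 145 to 246 TPM. SLC12A8 rose by 2.44 ± 0.87 (adjusted p = 0.0160), but at a mean of 4.36 and 23.2 normalized counts. The SLC12A8 call ended in 6 of 20 other settings. These included leaving out each of Chelator replicates 1, 2 and 3 and DMSO replicates 1 and 2 (adjusted p from 0.0559 to 0.0922). The 3 that fell, named after their values were seen, were the lysosomal polyamine exporter ATP13A2 (−0.42), its relative ATP13A3 (−0.34) and SLC18B1 (−0.60). The ATP13A3 call ended with GC and length trends removed (−0.12, adjusted p = 0.0608) and under limma on log2 TPM (adjusted p = 0.0772 and 0.0892). The ODC relatives AZIN2 and OAZ3 did not pass, nor did the other acetylation and oxidation genes SAT2, SATL1 and HDAC10.

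**Figure D5:**
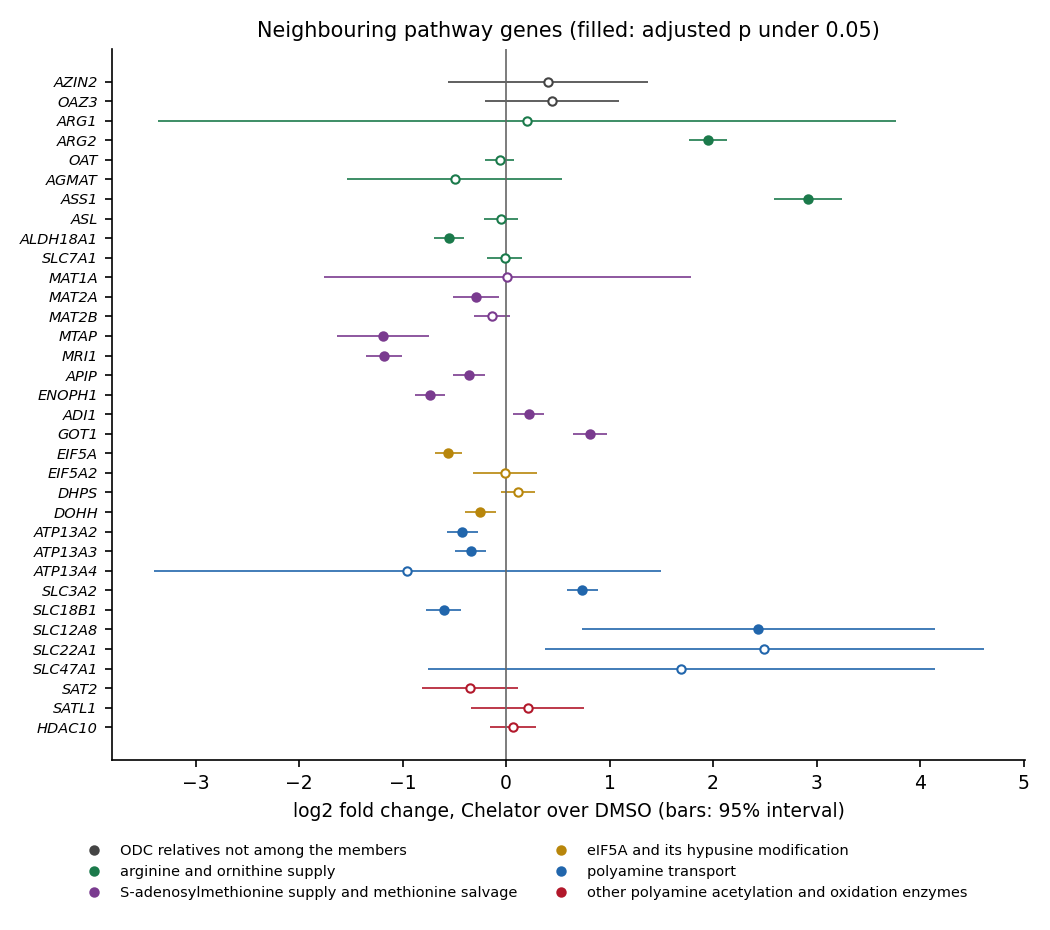
log2 fold change (Chelator over DMSO, bars 95% interval) of the 34 tested pathway genes, coloured by list, filled where the DESeq2 adjusted p is under 0.05. ASS1 and ARG2 lie farthest to the right among precisely measured genes, and wide bars mark genes of few counts.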

How the data were processed

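Polyadenylated RNA of 3 DMSO and 3 Chelator samples was quantified by the authors with Salmon 1.10.2 (submitters' processing notes, build hg38); the transcript annotation and bias settings were not given in the sources used here. The deposited estimated counts (NumReads) are the reads salmon assigned to each transcript and need not be whole. The deposited TPM values are these counts per effective length, scaled by the authors to the same sum in each library.

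The 252045 transcripts were looked up by identifier in GENCODE release 44 (GRCh38) and summed over 62252 genes. Of them 433, with 0.139% to 0.150% of counts, had no match. Gene counts were rounded and tested with DESeq2 1.42.0 (R 4.3.3; Wald test, median-ratio size factors, average transcript length offset, total above 10, Benjamini-Hochberg). Thresholds were an adjusted p of 0.05 and, for calls, an absolute log2 fold change above 1. Normalized counts were divided by size factor and length offset. Intervals are 1.96 SE of the DESeq2 fit either way. Transcript usage was tested with edgeR 4.0.16 (diffSpliceDGE on a quasi-likelihood fit, gene-level Simes p) over transcripts that reached 10 counts in 3 or more libraries, and called at an adjusted p of 0.05 with a share change above 5 percentage points. limma 3.58.1 served as an alternative. Shares are of the summed TPM of a gene. Both tests were checked on simulated counts. Shared sequence was measured as 31-base stretches.

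The 10 genes, the pathway lists and the markers were chosen with earlier results of these data known. All 10 genes are named; of the pathway list, called genes, the 2 largest changes per list among those passing, and DOHH, ADI1, EIF5A and DHPS; of transcripts, up to 3 per gene with a share change above 5 points. OAZ1-201, OAZ1-203, OAZ1-204, OAZ1-209 and SAT1-208 were named after their values were seen. 1 marker of the lists is not reported here.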

Additional observations from a re-analysis of the deposited data

How the results depend on the processing

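ODC1, AMD1, SRM, SMS, SAT1 and SMOX kept their direction and an adjusted p under 0.05 in all 20 other settings, and AZIN1 kept its direction. With the fold threshold, AMD1, SRM, SAT1 and SMOX were called in each of these 20, but 0 of the 10 genes were called lower under a test against an absolute log2 fold change of 1. OAZ1 was also called higher with protein-coding transcripts only and without retained-intron transcripts. Under the test against a fold 0 pathway genes were called lower, and 615 genes of all were called higher and 59 lower, against 2007 and 639. With centring on the mean log2 change, which moved the median of all genes to −0.15, 1075 genes were called lower. With protein-coding transcripts only, 293 were called lower, and with limma on log2(TPM + 1) 626 higher and 171 lower. Only 1 pathway gene was called lower with GC and length trends removed and with limma on log2(TPM + 1) or log2(TPM + 0.1). The direction of OAZ1 turned to −0.075 with centring and −0.071 with GC and length trends removed, and that of PAOX to −0.081 and −0.057. DHPS turned to −0.024 with GC and length trends removed, −0.052 with centring, −0.084 with protein-coding transcripts only and −0.019 without retained-intron transcripts. The cause of these changes was not tested.

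For transcript usage, 6 of the 10 genes were called with a likelihood ratio fit and 6 with limma's diffSplice, against 1, and leaving out 1 library gave 1 to 2. Over all genes these gave 2270 and 3184 calls against 1101, and 592 without Chelator replicate 2 and 539 without Chelator replicate 3. The likelihood ratio fit and diffSplice both called OAZ1, ODC1, AMD1, SRM and SMOX. PAOX was called under the first alone and SAT1 under the second alone. The likelihood ratio fit, the retained-intron setting and the PAOX locus were chosen after seeing the data.

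Same-numbered libraries of the groups did not deviate together (correlations from −0.0178 to 0.0835), so the numbers pair nothing here. With a replicate block the 10 genes gave the same counts, 3 higher and 4 lower, and usage again called OAZ1 alone (adjusted p = 4.4e-05).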
